A study of Mus musculus with 18 samples.

Results

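The 8 genes described here encode the urea transporters (*Slc14a1*, *Slc14a2*) and the enzymes that make citrulline and turn it into arginine (*Nags*, *Cps1*, *Otc*, *Oat*, *Ass1*, *Asl*). They were taken by symbol from the 55487 genes counted in each library of mouse ileum, and 7 of the 8 were among the 12645 protein-coding genes that had more than 3 CPM (the count of a gene scaled by the counted reads of its library) in at least 4 libraries. *Slc14a2* did not pass. The list was drawn up with results of these libraries known. *Slc14a1* was selected on its difference between homozygous and control samples, and *Oat* was selected from the genes that differed between genotypes in the study, so the genotype differences of these 2 genes are descriptions and are given with no test.

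Whole-thickness ileum was sequenced from 18 mice, 1 library per mouse, with 6 control, 6 IEC-*Ppara* heterozygous and 6 IEC-*Ppara* homozygous animals. All were C57BL6/J littermates fed chow that carried the CAG-*Ppara*,-*EGFP* transgene in the *Col1a1* locus and received tamoxifen (100 mg/kg, intraperitoneal) on 3 days at 8 to 13 weeks of age, with tissue taken 2 weeks later. IEC-*Ppara* mice also carried *Villin-CreERT2*, which turns the cassette round in cells of the intestinal epithelium, and controls lacked it, so that effects of Cre and of *Ppara* cannot be told apart in comparisons with control. The heterozygous and homozygous groups carried the transgene on one or both alleles, and 7 females and 11 males were used. Libraries held 38528522 to 50376371 counted reads. *Ppara*, the targeted gene, followed the labels, at 25.8 to 47.4 CPM in controls, while heterozygous libraries had 107.3 to 196.1 CPM and homozygous libraries 183.6 to 278.6 CPM. The 7 markers of epithelium summed to 12008 to 16115 CPM and the 7 of ileal enterocytes to 15260 to 23780 CPM, and markers of muscle, fibroblasts and immune cells of the gut wall were present as well. In such bulk tissue, fewer cells of a type and less RNA per cell cannot be told apart.

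Citrulline in blood comes mainly from enterocytes of the small intestine. In their mitochondria, carbamoyl phosphate synthetase (CPS1), which is switched on by the N-acetylglutamate that NAGS makes, supplies carbamoyl phosphate, and ornithine transcarbamylase (OTC) joins it to ornithine, which ornithine aminotransferase (OAT) exchanges with glutamate semialdehyde. Argininosuccinate synthase (ASS1) and argininosuccinate lyase (ASL) turn citrulline into arginine, which the adult gut mostly leaves to the kidney. The transporters UT-B (*Slc14a1*) and UT-A (*Slc14a2*) let urea pass through membranes.

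Levels can be compared between genes only per length, for which FPKM (CPM divided also by gene length in kilobases) was used. In control ileum, the genes of citrulline synthesis stood at the top of the list. *Oat* had a median of 233 FPKM (211.8 to 315.7), above 98.7% of the 12645 genes, and *Cps1* had 85.8 FPKM (76.6 to 100.1), above 96.1%. *Otc* followed with 19.7 FPKM (18.3 to 24.3) and *Nags* with 13.3 FPKM (11.3 to 15.9). The genes that take citrulline on to arginine were lower, *Ass1* at 6.70 FPKM (3.30 to 9.00) and *Asl* at 5.62 FPKM (4.98 to 6.01). *Slc14a1* was near the lower end at 1.30 FPKM (0.755 to 1.49), above 12.9% of the genes tested, and *Slc14a2* had a median of 0.00408 FPKM. Going down this order, the control values of *Oat* and *Cps1*, of *Cps1* and *Otc*, of *Otc* and *Nags*, of *Nags* and *Ass1*, of *Asl* and *Slc14a1*, and of *Slc14a1* and *Slc14a2* did not overlap. Those of *Ass1* and *Asl* overlapped.

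**Figure D1:**
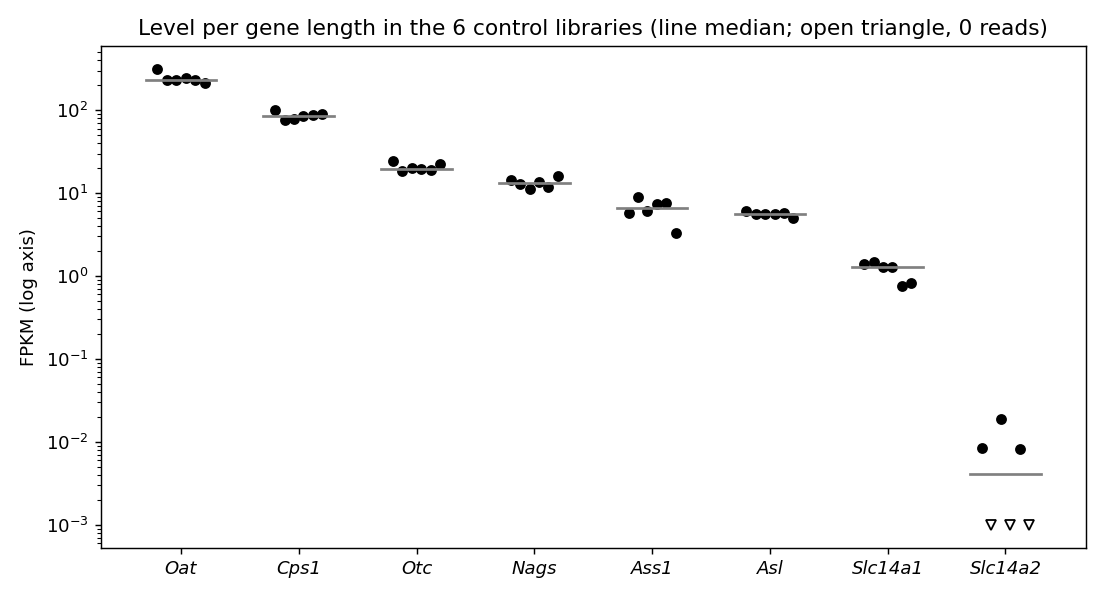
FPKM of the 8 genes (log axis, ordered by median) in each of the 6 control libraries, with a line at the median and open triangles for libraries with 0 reads. *Oat* and *Cps1* lie above all other genes in every library, and *Slc14a2* is at or near 0.

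*Slc14a1* was lower in homozygous ileum than in both other genotypes. It had 3.02 to 5.94 CPM in control libraries (median 5.18), 2.90 to 4.79 CPM in heterozygous libraries (median 3.63) and 1.72 to 2.77 CPM in homozygous libraries (median 2.58), on 68 to 299 reads per library. Every homozygous library was below every control and every heterozygous library. CPM of the groups did not overlap in 0.854% of all genes for the first comparison and in 0.269% for the second. The first is the comparison on which *Slc14a1* was selected. The controls fell into 4 libraries between 5.16 and 5.94 CPM and 2 at 3.02 and 3.28 CPM. The fitted difference between homozygous and control was -0.94 on the log2 scale (standard error 0.18), a fold of 0.521, and between homozygous and heterozygous -0.68 (0.18). The heterozygous libraries overlapped the controls, with a log2 difference of -0.26 (0.18).

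*Slc14a1* also moved with the B cell markers, which were high in 4 libraries (controls 2 and 3, heterozygous 2 and homozygous 1). The summed CPM of the 6 B cell markers, none of them at 0 in any genotype, ran from 11.0 to 390 in control, from 8.33 to 219 in heterozygous and from 7.02 to 64.8 in homozygous libraries. Across the 18 libraries, log2 CPM of *Slc14a1* and the mean log2 CPM of these markers had Pearson's r = 0.557 and Spearman's rho = 0.692, and r = 0.565 after the mean of each genotype was taken off. Without the 4 libraries, the log2 difference between homozygous and control was -0.84, and with the smooth muscle markers as a covariate it was -0.99.

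*Slc14a2*, the neighbour of *Slc14a1* in the genome, was at the limit of detection in ileum. *Slc14a1* lies at chr18:78100091-78142119 and *Slc14a2* at chr18:78146148-78596942 (GRCm38), both on the minus strand. A total of 23 reads fell on *Slc14a2* in all 18 libraries, with 0 to 4 reads in each control, 0 to 4 in each heterozygous and 0 to 3 in each homozygous library. In 9 libraries it had 0 reads, which allows up to 0.0779 CPM in the shallowest of them (3 reads, counting error only). No fold is given, because all 3 genotypes were at this floor, and a difference was not detectable at this depth.

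Of the genes of mitochondrial citrulline synthesis, *Nags*, *Cps1* and *Otc* did not pass the threshold in any genotype comparison, and *Oat* is given as a description. *Otc* (chrX:10252305-10321024) had 77.4 to 103.1 CPM in control libraries (median 83.6), 82.2 to 94.9 CPM in heterozygous libraries (median 86.7) and 62.6 to 76.9 CPM in homozygous libraries (median 74.1). Every homozygous library was thus below every library of the other genotypes, although the margin to the lowest control was small and closed when libraries were scaled by TMM. In the edgeR fit the log2 difference from control was -0.25 (standard error 0.090), a decrease of 16.0%, with an unadjusted p of 0.0119 and an adjusted p of 0.445. Against heterozygous samples it was -0.29 (0.090), with an unadjusted p of 0.00466 and an adjusted p of 0.526, so neither difference passed the threshold of 0.05. Heterozygous and control libraries overlapped fully (log2 difference 0.04, standard error 0.090).

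*Oat* (chr7:132557478-132576398) had 499.8 to 745.0 CPM in control libraries (median 549), 497.7 to 664.4 CPM in heterozygous libraries (median 543) and 418.4 to 522.8 CPM in homozygous libraries (median 434). Of the 6 homozygous libraries, 5 were below all controls, and 5 were below all heterozygous libraries. The log2 difference was -0.34 (standard error 0.094) from control, a decrease of 21.0%, and -0.33 (0.094) from heterozygous. Heterozygous and control samples differed by -0.01 (0.094). The highest value, 745 CPM, belonged to control 1, and with that library left out the homozygous difference from control was -0.25. *Oat* lies within the span given for *Fgfr2* on the same strand, and reads in shared exons may have been left out as ambiguous.

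*Cps1* (chr1:67123026-67231259) had 425.5 to 555.8 CPM in control libraries (median 477), 344.9 to 519.1 CPM in heterozygous ones (median 451) and 328.5 to 468.1 CPM in homozygous ones (median 422). The genotypes overlapped, with 3 homozygous libraries below the lowest control. The log2 difference between homozygous and control was -0.24 (standard error 0.12, edgeR unadjusted p = 0.0513, adjusted p = 0.619). *Nags* (chr11:102145513-102149477) had 32.1 to 45.3 CPM in control libraries (median 37.7), 36.2 to 42.7 CPM in heterozygous ones (median 37.6) and 30.0 to 38.7 CPM in homozygous ones (median 33.5). Its homozygous difference was -0.16 (0.098, edgeR adjusted p = 0.704) from control, or -0.071 without control 6, and -0.20 (0.098, adjusted p = 0.642) from heterozygous. No difference of *Cps1* or *Nags* between genotypes passed the threshold.

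**Figure D2:**
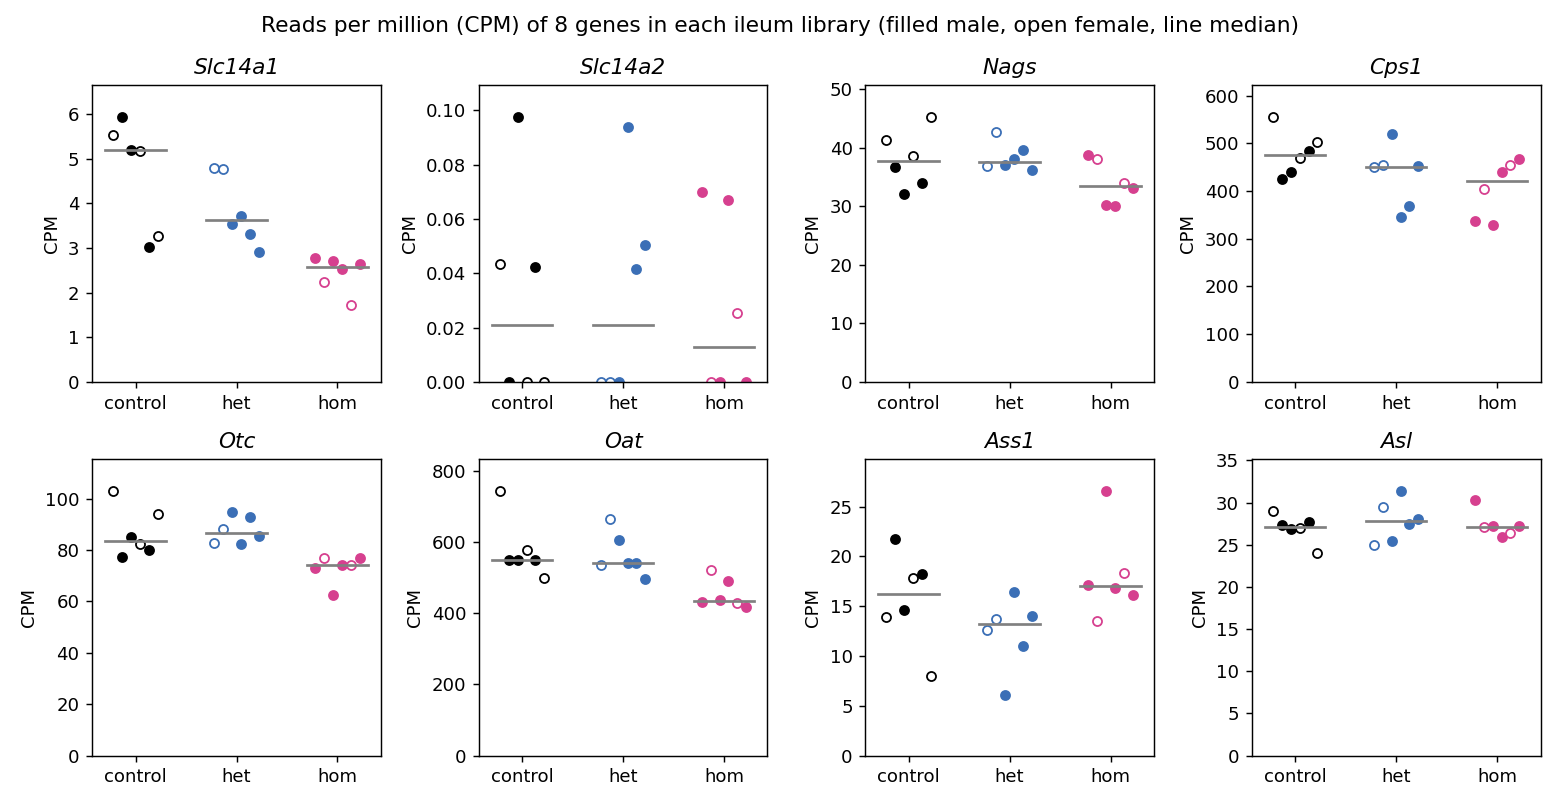
CPM of each gene in each library by genotype (het, heterozygous; hom, homozygous), with filled points for males, open points for females and a line at the median. Homozygous points of *Slc14a1* (1.72 to 2.77 CPM) and *Otc* (62.6 to 76.9 CPM) lie below all points of the other genotypes, and those of *Oat* overlap them in part.

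Promoter sequences were looked at because *Oat* and *Nags* varied with *Otc* across libraries, as given further on, and because PPARα binds, with its partner RXR, a pair of half-sites in direct repeat with 1 base between them (DR1). RefSeq sequences (GRCm38.p6) of 4 of the 8 genes were used, *Nags*, *Oat*, *Otc* and *Ass1*. The 250 bases before the start site of the first 3 genes are shown 5′ to 3′ on the strand of the gene, at chr11:102145263-102145512 (plus strand), chr7:132576399-132576648 (minus strand) and chrX:10252055-10252304 (plus strand). Capitals mark the half-site AGGTCA and the CCAAT box, each in either orientation.
Nags: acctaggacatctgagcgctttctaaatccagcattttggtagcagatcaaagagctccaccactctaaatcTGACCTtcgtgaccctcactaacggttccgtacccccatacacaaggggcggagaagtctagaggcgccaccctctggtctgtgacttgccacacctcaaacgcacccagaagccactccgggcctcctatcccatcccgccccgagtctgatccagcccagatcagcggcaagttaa
Oat: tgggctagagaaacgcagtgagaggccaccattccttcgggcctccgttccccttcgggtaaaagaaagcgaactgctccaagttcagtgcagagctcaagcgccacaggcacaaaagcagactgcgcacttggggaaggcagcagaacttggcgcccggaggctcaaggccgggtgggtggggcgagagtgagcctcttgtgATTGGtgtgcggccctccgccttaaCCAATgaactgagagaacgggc
Otc: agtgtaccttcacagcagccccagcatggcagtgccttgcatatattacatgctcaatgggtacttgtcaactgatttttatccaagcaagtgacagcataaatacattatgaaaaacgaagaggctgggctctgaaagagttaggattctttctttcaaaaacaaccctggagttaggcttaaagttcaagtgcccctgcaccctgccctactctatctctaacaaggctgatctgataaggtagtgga
The exact DR1 (2 copies of AGGTCA in the same direction with any base between them, both strands) was in none of these windows nor in that of *Ass1*, and in 0.0335% of the 32851 mouse promoter windows of this length. The half-site AGGTCA, which is part of the DR1, occurred once, on the minus strand of *Nags* at 178 to 173 bases before the start, and 14.0% of all windows hold it. *Oat* had the CCAAT box on the minus strand at 47 to 43 bases and on the plus strand at 22 to 18 bases before the start, and 33.8% of windows hold this motif. *Otc* had none of the 3 motifs. The *Otc* window was also the poorest in G and C (43.6%), beside 55.6% in *Nags*, 75.6% in *Ass1* and a median of 52.4% over all windows. These matches describe letters only, and windows of the other members were not analysed here. Because so few windows hold the exact DR1, its absence from these 4 gives no information on PPARα binding, which was not tested.

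*Ass1* and *Asl* act downstream of citrulline, and neither passed the threshold in any genotype comparison. *Ass1* (chr2:31470207-31520672) had 7.96 to 21.7 CPM in control libraries (median 16.2), 6.09 to 16.5 CPM in heterozygous ones (median 13.2) and 13.5 to 26.6 CPM in homozygous ones (median 17.0). The groups overlapped. The largest contrast was between homozygous and heterozygous samples, with a log2 difference of 0.53 (standard error 0.22, edgeR unadjusted p = 0.0253, adjusted p = 0.642), and 4 homozygous libraries were above all heterozygous ones. The homozygous difference from control was 0.21 (0.21, edgeR adjusted p = 0.841), and it was 0.088 without homozygous 3 and 0.097 without control 6. *Asl* (chr5:130011258-130029247) was the steadiest gene of the list, at 24.0 to 31.4 CPM over all 18 libraries with a coefficient of variation of 6.66%. Its log2 difference from control was 0.02 (standard error 0.061) in homozygous and 0.07 (0.061) in heterozygous samples, with edgeR adjusted p = 0.959 and 0.9996, and for the homozygous difference an interval of 2 standard errors ran from -0.10 to 0.15.

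The 5 genes tested that were not chosen on their own genotype difference (*Nags*, *Cps1*, *Otc*, *Ass1* and *Asl*) were counted together. Between homozygous and control samples 0 of the 5 were called by edgeR (0.411% of all genes) or DESeq2, and 1, *Otc*, had an unadjusted p under 0.05, as did 8.06% of all genes. Between heterozygous and control samples 0 of the 5 were called by either tool (0.293% of all genes by edgeR), and 0 had an unadjusted p under 0.05 (5.29% of all genes). Between the IEC-*Ppara* genotypes 0 of the 5 were called by either tool (0.00791% of all genes by edgeR), and 2, *Otc* and *Ass1*, had an unadjusted p under 0.05 (7.61% of all genes). Of all 12645 genes, DESeq2 called 136, 80 and 10 in these comparisons, in the same order. The median log2 difference of the 5 genes was -0.16 when homozygous samples were set against control, 0.04 when heterozygous were, and -0.11 between the IEC-*Ppara* genotypes. The medians over all genes were 0.00, -0.01 and 0.00. The median of -0.16 was the value of *Nags*, and without control 6 the median, again that of *Nags*, was -0.071. CPM of *Otc* did not overlap between homozygous and control libraries, as in 0.854% of all genes, nor between homozygous and heterozygous libraries, as in 0.269% of all genes. After TMM scaling *Otc* overlapped the controls. None of the 5 was without overlap between heterozygous and control libraries (0.467% of all genes). The 3 comparisons share samples in pairs.

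**Figure D3:**
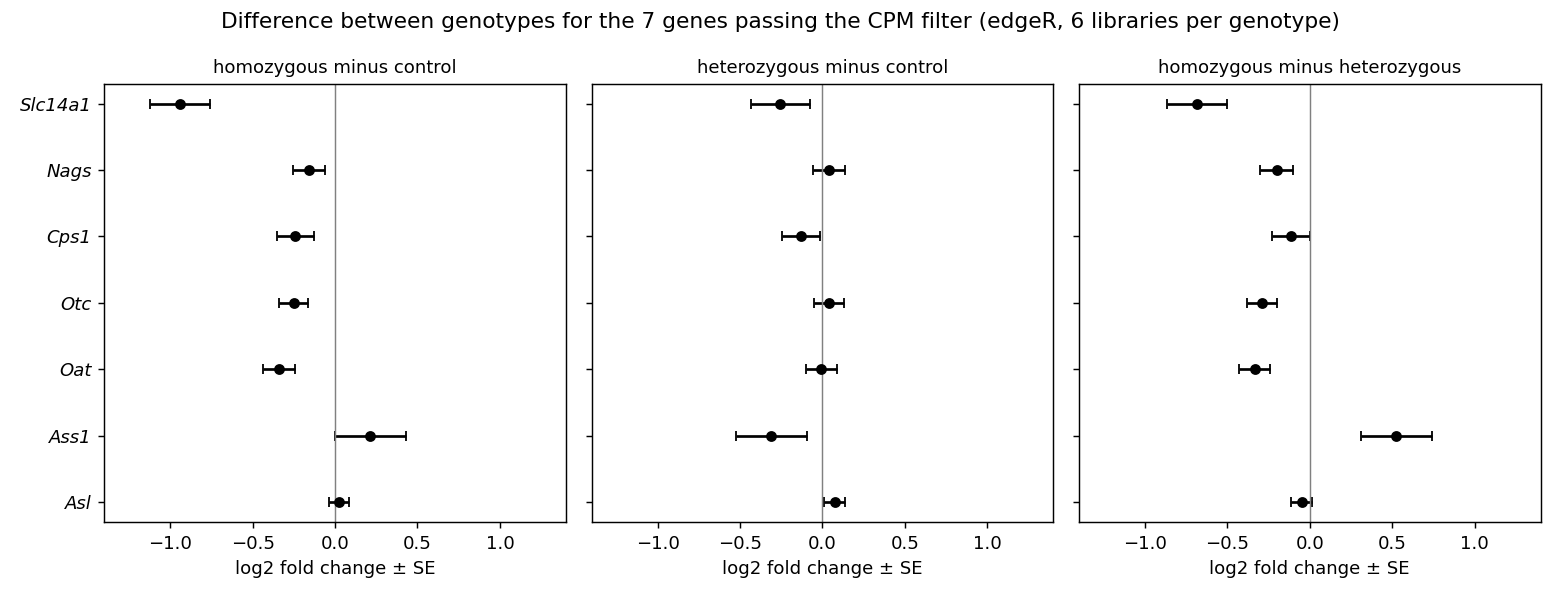
Fitted log2 fold change with its standard error (bars) for the 7 genes passing the CPM filter in the 3 genotype comparisons, from 6 libraries per genotype. *Slc14a1*, *Oat*, *Otc*, *Cps1* and *Nags* lie left of 0 in both comparisons of homozygous samples, and the bars of *Ass1* are the widest (standard error 0.21 against control).

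Some pairs of members varied together across the 18 libraries. Over all 21 pairs of log2 CPM, Pearson's r ran from -0.784 to 0.771 with a median of 0.244, and both extremes were pairs with *Otc*. Log2 CPM of *Otc* ran with *Nags* (Pearson's r = 0.771, Spearman's rho = 0.637), *Oat* (0.766 and 0.783) and *Cps1* (0.677 and 0.540), and against *Ass1* (-0.784 and -0.831). With genotype means removed the r of *Otc* was 0.687 with *Nags*, 0.564 with *Oat*, 0.665 with *Cps1* and -0.743 with *Ass1*. Without the 2 libraries farthest from the *Otc* median they were 0.681, 0.628, 0.422 and -0.815. *Slc14a1* ran with *Oat* (r = 0.697, rho = 0.659), but with genotype means removed this fell to r = 0.315. *Slc14a1* and *Otc* had r = -0.097 with genotype means removed. All pairs share the same libraries and depths, and the values are descriptions over 18 libraries.

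**Figure D4:**
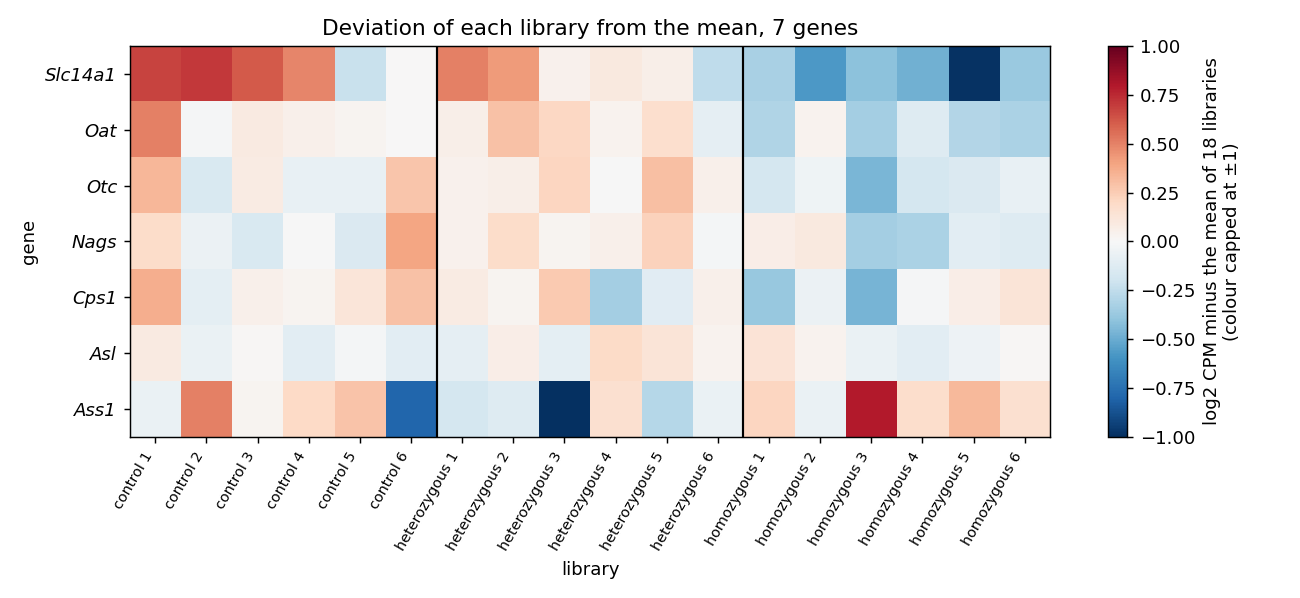
Log2 CPM of 7 genes in each library minus the mean of all 18 libraries (red higher, blue lower, colour capped at 1 on either side), with vertical lines between genotypes. *Otc*, *Nags* and *Cps1* are lowest or near lowest in homozygous 3, where *Ass1* is highest, and *Asl* varies least.

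Members differed in how they moved with markers of other cells in the wall. *Otc* ran against the mean log2 CPM of 6 fibroblast markers (r = -0.853, rho = -0.777) and against enteric glia (r = -0.842), smooth muscle (r = -0.731) and macrophage markers (r = -0.700), and *Nags* did likewise (r = -0.725, -0.703, -0.623 and -0.697). *Ass1* ran with smooth muscle (r = 0.922, rho = 0.903) and enteric glia markers (r = 0.909). Of the 12 marker lists, *Cps1* ran most closely with that of the crypt (r = 0.748), and *Oat* with that of Paneth cells (r = 0.656). No gene of these lists was called by edgeR between homozygous and control samples, and the summed levels of the genotypes overlapped except those of Paneth cell markers in homozygous and heterozygous libraries. Summed CPM of the 6 smooth muscle markers was 400 to 4754 in control (median 2977), 515 to 3436 in heterozygous (median 2671) and 3198 to 7453 in homozygous libraries (median 3871), and that of the 6 fibroblast markers 1370 to 4099, 1041 to 2728 and 2089 to 4841 CPM. The 6 crypt markers summed to 739 to 892 CPM, 568 to 882 CPM and 606 to 779 CPM in the same order of genotypes, and the 5 Paneth cell markers to 11080 to 15900 CPM, 12882 to 15755 CPM and 8403 to 12600 CPM. The 6 macrophage markers summed to 234 to 461 CPM, 229 to 371 CPM and 232 to 542 CPM in the same order. The 6 enteric glia markers summed to 464 to 732 CPM, 537 to 806 CPM and 524 to 696 CPM. Their mean log2 CPM, which the correlations used, was highest in homozygous libraries. It was 1.24 to 2.83 in control, 1.44 to 2.53 in heterozygous and 2.39 to 3.13 in homozygous libraries. The 6 hepatocyte markers summed to 3.33 to 66.8 CPM in control (median 13.7) and 4.81 to 78.0 CPM in heterozygous libraries (median 8.01). In homozygous libraries they summed to 6.79 to 53.4 CPM (median 36.1). *Nags* ran against their mean log2 CPM (r = -0.665) and *Ass1* with it (r = 0.546). None of the genes in these lists was at 0 throughout a genotype.

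With the smooth muscle markers as a covariate in the fit, an analysis added after the data were seen, the homozygous difference from control went from -0.25 to -0.16 for *Otc*, from -0.24 to -0.15 for *Cps1*, from -0.16 to -0.07 for *Nags* and from 0.21 to -0.09 for *Ass1*. For *Oat* it went from -0.34 to -0.32. Between homozygous and heterozygous samples the difference of *Ass1* went from 0.53 to 0.15, that of *Otc* from -0.29 to -0.18 and that of *Nags* from -0.20 to -0.11. Without the 4 libraries highest in B cell markers, the homozygous difference from control was larger, at -0.30 for *Otc*, -0.26 for *Cps1*, -0.27 for *Nags*, 0.35 for *Ass1* and -0.36 for *Oat*. No fit was made with the other marker lists.

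**Figure D5:**
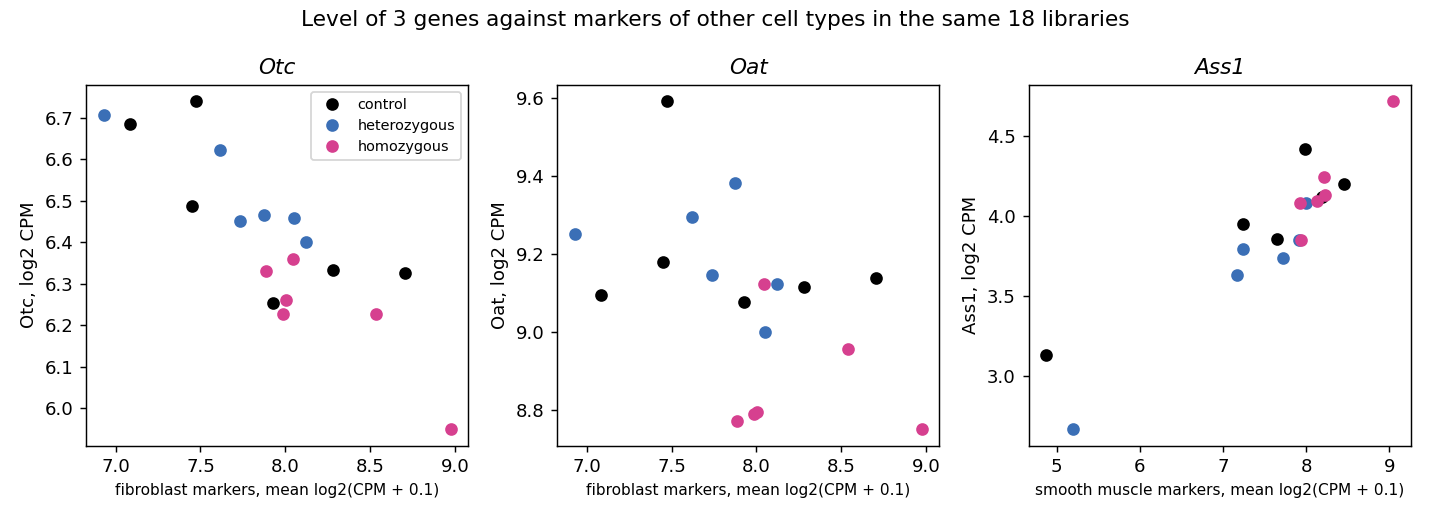
Log2 CPM of *Otc*, *Oat* and *Ass1* against the mean log2(CPM + 0.1) of markers of fibroblasts (*Otc*, *Oat*) and smooth muscle (*Ass1*) in the same libraries, coloured by genotype. *Otc* falls and *Ass1* rises along the axis (r = -0.853 and 0.922 over 18 libraries), and *Ass1* is lowest in the 2 libraries with the least smooth muscle signal.

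Sex took no part in the choice of the genes. Between 7 females and 11 males, with genotype in the model, 0 of the 7 genes were called by edgeR or DESeq2, where 0.0554% of all genes were called by edgeR, and 1, *Nags*, had an unadjusted p under 0.05, as did 3.39% of all genes. Of all 12645 genes, 8 were called by DESeq2. *Nags* had 33.9 to 45.3 CPM in females and 30.0 to 39.5 CPM in males, with a log2 difference of 0.18 (standard error 0.073, unadjusted p = 0.0224, edgeR adjusted p = 0.998). The ranges of the sexes overlapped, and the difference did not pass. *Slc14a1* differed by 0.05 (0.16) and *Oat* by 0.14 (0.075), both with edgeR adjusted p = 0.998. With sex as a covariate, the homozygous difference from control went from -0.16 to -0.12 for *Nags* and from -0.24 to -0.21 for *Cps1*. It went from -0.25 to -0.23 for *Otc* and from 0.21 to 0.19 for *Ass1*, and stayed at 0.02 for *Asl*. For *Oat* it went from -0.34 to -0.32 and for *Slc14a1* from -0.94 to -0.93.

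The wider pathway was followed with 7 lists of 60 genes in all, of which 54 were tested. Besides the members, 1 of these 54 genes was called by edgeR between homozygous and control and between heterozygous and control samples (0.411% and 0.293% of all genes), and it was *Aqp3*, a channel for water, glycerol and urea. The lists were drawn up with results of these libraries known and *Aqp3* is in the study's own list of differing genes, so its difference is a description with no test. *Aqp3* had 1.37 to 3.10 CPM in control libraries, while heterozygous libraries had 7.56 to 19.7 CPM and homozygous libraries 16.8 to 26.0 CPM. The log2 difference from control was 3.42 (standard error 0.26) in homozygous and 2.93 (0.26) in heterozygous samples. Neither group overlapped the controls, as in 0.854% of all genes for homozygous and 0.467% for heterozygous libraries. DESeq2 also called *Aqp7*, a channel for water and glycerol, between heterozygous and control samples, where edgeR gave a log2 difference of 0.49 (standard error 0.11, adjusted p = 0.112). In this comparison DESeq2 called 80 of all 12645 genes. *Aqp7* was named after its values were seen.

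No other list held a called gene in any genotype comparison, by edgeR or DESeq2. Over all 7 lists, 9 of the 54 genes had an unadjusted p under 0.05 in edgeR between homozygous and control samples (8.06% of all genes). The 2 channels tested were among them, with 1 of 5 mitochondrial carriers, 2 of 8 genes of arginine use and 1 of 11 polyamine genes. The count was 0 for the 9 amino acid transporters and 0 for the 7 regulators. Between heterozygous and control samples 3 of the 54 genes had an unadjusted p under 0.05 (5.29% of all genes). Between the IEC-*Ppara* genotypes 7 did (7.61% of all genes). Of 12 genes tested that supply ornithine and glutamate, 3 had an unadjusted p under 0.05 between homozygous and control samples (8.06% of all genes) and the median log2 difference was -0.11. Among them, *Glul* (glutamine synthetase) had a log2 difference of 0.39 (standard error 0.15, edgeR adjusted p = 0.516) and *Aldh18a1*, which makes glutamate semialdehyde, -0.21 (0.097, adjusted p = 0.610). Of 5 mitochondrial carriers, *Slc25a13*, the aspartate and glutamate carrier citrin, had -0.17 (0.077, adjusted p = 0.599) and *Slc25a29*, a carrier of basic amino acids, 0.16 (0.14, adjusted p = 0.792). Citrin was also among the 5 genes whose log2 CPM was most like that of *Otc* (r = 0.904), a value singled out after it was seen. Of 8 genes of arginine use, *Ddah2* and *Ddah1*, which clear methylated arginine, had 0.44 (0.17, adjusted p = 0.518) and 0.30 (0.12, adjusted p = 0.534). Of 11 polyamine genes, *Smox* (spermine oxidase) had 0.34 (0.092, adjusted p = 0.177) and *Aoc1* (diamine oxidase) -0.14 (0.081, adjusted p = 0.703). Of 9 amino acid transporters, *Slc7a2*, a carrier of cationic amino acids, had 0.67 (0.36, adjusted p = 0.666) and *Slc3a2* -0.16 (0.092, adjusted p = 0.681). Of 7 regulators tested, *Cebpb* had 0.36 (0.25, adjusted p = 0.741) and *Sirt5*, a deacylase that acts on CPS1, 0.10 (0.12, adjusted p = 0.881). Apart from the 2 channels, which are described above, none of the genes in this paragraph passed the threshold in any genotype comparison.

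The genes most like *Slc14a1* across the 18 libraries were *Mppe1* (r = 0.815), *Ercc4* (0.815), *Nat8f1* (0.788), *Rragd* (0.773) and *Pbld2* (0.766), and with genotype means removed these values were 0.681, 0.635, 0.683, 0.335 and 0.481. Those most like *Oat* were *Serpina1b* (r = 0.876), *Tlr12* (0.846), *Pcbp2* (0.845), *Eif3l* (0.842) and *Eef1a1* (0.819), which kept r between 0.653 and 0.784 with genotype means removed.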

How the data were processed

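Poly-A RNA of whole-thickness ileum was sequenced by the authors as paired reads, aligned with STAR to the Ensembl assembly GRCm38, and counted with featureCounts from uniquely aligned, unambiguous reads. The strand setting is not given in the sources used here. The deposited count values are whole reads per gene with no normalization, the CPM values of the authors are these counts scaled by the counted reads of each library, and the FPKM values of the authors also divide by gene length. A deposited table of moderated log2 values was not used.

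Here, 13709 genes exceeded 3 CPM in 4 or more libraries, and the 12645 protein-coding ones were fitted with edgeR 4.0.16 in R 4.3.3 (glmQLFit and glmQLFTest, TMM, 1 coefficient per genotype, all 18 libraries in 1 fit, no covariates). Within a comparison, Benjamini-Hochberg adjustment ran over all genes, which were called under 0.05. Sex was tested with genotype in the model. On simulated data for homozygous against control samples with 200 of 12645 genes changed by 1 on the log2 scale, 174 were called and 8 others. Correlations used log2 CPM (TMM, prior count 2), and marker scores the mean log2(CPM + 0.1). Alternatives were DESeq2 1.42.0, other scalings, filters and covariates, and each library left out. Some genes of the set are not reported here. The members and the gene lists were chosen with earlier results of these data known. Genes named beside the members were those called by edgeR in a list in any genotype comparison. In a list with none, they were the 2 with the lowest unadjusted p for homozygous against control. The 5 genes most like *Slc14a1* and *Oat* were also named. *Aqp7*, called by DESeq2, was named outside this rule after its values were seen. Each library is a separate mouse. Floors cover counting error only, while standard errors and the interval made from them come from the fit over mice. Each edgeR standard error is the size of the log2 difference divided by the square root of the F value of its glmQLFTest.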

Additional observations from a re-analysis of the deposited data

Results flagged for a closer look

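In 24 groups of 6 libraries (8 genes in 3 genotypes), 4 had 1 library farther from the others than Dixon's criterion allows, and chance flags about 1 in 20 groups. *Otc* was 62.6 CPM in homozygous 3, where the next lowest library of that genotype had 73.2 CPM. *Ass1* was 26.6 CPM in the same library, beside 18.3 CPM in the next highest. Homozygous 3 also had the highest summed CPM of smooth muscle (7453), fibroblast (4841) and macrophage markers (542) of the 18 libraries. Its sums of Paneth cell (8403) and epithelium markers (12008) were the lowest. Whether this bears on its *Otc* and *Ass1* values was not tested. *Asl* was 30.3 CPM in homozygous 1 and 27.3 CPM in the next. *Oat* was 745 CPM in control 1, where no other control exceeded 578 CPM. 

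For 2 of 21 differences between genotypes, every female library moved one way from the mean of its own sex in the reference group and every male library the other way, and the difference between sexes was not tested. *Slc14a1* in heterozygous against control samples differed by 0.124 CPM in females and by -1.35 CPM in males. *Otc* in the same comparison differed by -7.80 CPM in females and by 8.09 CPM in males. The female groups of this comparison held 3 control and 2 heterozygous mice.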

How the results depend on the processing

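Between homozygous and control samples the log2 difference of *Slc14a1* was -1.04 to -0.86 with 1 library left out and -0.99 to -0.84 in the other alternatives, and that of *Oat* -0.39 to -0.25 and -0.36 to -0.32. Of 798 values of member differences in all alternatives, 780 kept their sign. Genes called of all those tested numbered 136 with DESeq2 and 31 without the 4 libraries highest in B cell markers for homozygous against control (52 as reported), and 80 with DESeq2, 23 with only the 12 libraries, 15 without the 4 libraries and 22 with the replicate block for heterozygous against control (37 as reported). Between the IEC-*Ppara* genotypes (1 as reported) 10 were called with DESeq2, and 0 with RLE size factors, no CPM filter, at least 10 counts in every library, all biotypes, only the 12 libraries, the sex covariate, the replicate block, the smooth muscle covariate or without the 4 libraries, and 0 to 2 with 1 library left out. Between sexes 3 were called with at least 10 counts in every library (7 as reported). The member differences that changed sign, none of those tested being called, were at most 0.21 in size as reported. For homozygous against control these were *Ass1* with the smooth muscle covariate (-0.094), and *Asl* without the 4 libraries (-0.0053) and with 1 library left out (-0.0057 to 0.050). Heterozygous against control, they were *Otc* (-0.0013 without the 4 libraries, -0.0032 to 0.10 with 1 library left out), *Nags* (-0.050 without the 4 libraries) and *Oat* (0.0037 with all biotypes, 0.019 with the sex covariate, -0.044 to 0.084 with 1 library left out). Between the IEC-*Ppara* genotypes *Cps1* was 0.0029 with the smooth muscle covariate. Between sexes *Slc14a1* was -0.077 with the replicate block and -0.026 to 0.14 with 1 library left out. The smooth muscle covariate and the removal of the 4 libraries were chosen after seeing the data, and the cause of these shifts was not tested.

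No pairing of the mice by replicate number was clear, although the spread of the values is too wide to exclude one. Deviations of same-numbered libraries from their genotype means had a median correlation of 0.0547 over 18 pairs (-0.606 to 0.644), and 2 of 18 libraries correlated best with their own number, so the block by replicate number is given as an alternative only. Depth was lowest for *Slc14a1* (68 reads in its lowest library), and at least 289 reads fell on each of the other genes tested in every library.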
